A study of Mus musculus with 8 samples.

Results

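The genes described here are the enzymes and carrier proteins with which cells remove superoxide, peroxides and reactive electrophiles: the glutathione S-transferases, the glutathione peroxidases, the peroxiredoxins, the superoxide dismutases, catalase, the enzymes that make and reduce glutathione, the thioredoxin system and the quinone reductase Nqo1. The rule that chose them uses gene symbols alone, on a mouse 3′ expression array, and holds no threshold on a measured value. The rule found 44 genes among the 18193 genes that had a probe set assigned to a single symbol, and none was removed for a low signal. Each gene was read from its brightest probe set, and 3 genes (Gstm6, Gstt4 and Gpx5) had both group means under 5 on the scale used below, close to the level of 4.09 that an intensity of 1 gives. Another 6 probe sets that share several symbols, at least 1 of them fitting the rule, were not used.

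Superoxide dismutases turn superoxide into hydrogen peroxide, which catalase, the glutathione peroxidases and the peroxiredoxins then break down. Glutathione is a tripeptide built by glutamate-cysteine ligase and glutathione synthetase. Peroxidases oxidise it, glutathione reductase returns it to the reduced form with NADPH, and glutathione S-transferases join it to electrophiles. The transcription factor NRF2, held back by KEAP1 in unstressed cells, activates many of these genes when oxidants rise. In the kidney the proximal tubule is known for its rich supply of glutathione enzymes, and it makes most of the secreted peroxidase GPX3 of plasma.

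The cells came from 6-month-old FSP1-eGFP mice on a C57BL/6 background, in which the promoter of the fibroblast-specific protein gene (S100a4) drives the green fluorescent reporter. The labels tell of 5 mice in which the vessels of the left kidney were clamped for 45 min and then released, with kidney cells collected 3 days later; the 5 arrays of this group are Ischemic 1 to 5. The 3 comparison samples (Normal 1 to 3) are labelled normal in one place, non-ischemic control or sham in others, so whether they had surgery is not settled. Buprenorphine is given as the pain relief after ischemia surgery. GFP-positive cells were sorted from collagenase-digested kidney, their RNA was amplified with the NuGEN Pico kit, and each sample was hybridised to 1 array. The labels tie no array to a particular animal, and if arrays of a group share an animal, the p-values measure only the spread between these samples. Reporter activity alone decided which cells were collected.

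Values are log2(intensity + 16), then quantile normalized over the 8 arrays, and a difference is the Ischemic mean minus the Normal mean on that scale. The added constant makes the differences of dim genes smaller than on the intensity itself. The labels call every mouse male, yet 3 arrays (Ischemic 1, Ischemic 2 and Normal 1) had an Xist signal of 9.39 to 11.21 against 4.49 to 4.96 on the other 5, and results are therefore also given within each of these classes. Ischemic 1 stood furthest from the rest, its correlations with the others having a median of 0.753 against 0.850 to 0.913 for the remaining arrays. S100a4 itself read 11.30 to 12.22 on all 8 arrays. Of 15 fibroblast markers Lum was near the floor in both groups, and the list had a median difference of 0.39. All 20 measured proximal tubule markers, none of them near the floor, had negative differences, and for 17 the groups did not overlap. Their summed intensity ran from 4799.5 to 8036 on the Ischemic arrays and from 20272 to 43883 on the Normal arrays. All 14 measured distal tubule and collecting duct markers were negative too, Aqp2 among them near the floor, with a median of −1.80 and 8 without overlap, and their summed intensity was 948 to 2080 on Ischemic and 5951 to 6899 on Normal arrays. Of 10 endothelial markers 9 were negative with a median of −1.14 and 0 without overlap, and their summed intensity overlapped, at 1160 to 8312 and 2277 to 7132. The 14 measured macrophage and monocyte markers all had positive differences, 5 of them without overlap, and their summed intensity was 17799 to 27102 on Ischemic and 11679 to 15158 on Normal arrays. Of 10 measured T, NK and B cell markers 8 had positive differences, 0 without overlap. The mean of this list was 7.98 on Ischemic 1 and 6.74 on Normal 1, against 4.85 to 6.47 on the other arrays. Of 11 measured neutrophil markers 4 were near the floor, and the list had a median difference of 0.03. Of 4 measured podocyte markers Nphs1 and Wt1 were near the floor. The other podocyte markers, Podxl and Synpo, differed by −1.06 and −0.73 with overlapping groups, and the list had a median of −0.35.

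Most of the antioxidant genes read lower on the Ischemic arrays. The difference was negative for 36 of 44 genes, against 45.2% of all genes tested, and the median over the 44 was −0.73 against 0.04 over all genes. No gene of the array passed a Benjamini-Hochberg adjusted p of 0.05 in limma (0% of 18193, 0 of 44). At an unadjusted limma p under 0.05, 18 of the 44 genes were lower, against 5.02% of all genes, and 0 were higher, against 2.11%. The 5 Ischemic values all lay below the 3 Normal values for 10 genes, namely Sod3, Sod1, Gpx3, Gpx4, Gss, Gsr, Gsta3, Gsta4, Gstz1 and Gstm5, where 3.44% of all genes have such a pattern. This holds for the brightest probe set: Sod3, Sod1, Gpx4, Gss, Gsr and Gsta3 each had another probe set on which the groups overlapped. Without probe sets ending in _x_at or _s_at, 7 members had the pattern (against 3.22% of all genes), with Sod1, Gpx4 and Gss no longer among them. The opposite pattern, which 1.89% of all genes show, was seen for Gpx5, whose signal was near the floor, and was absent with each other scaling of the arrays. How many genes of the array were called lower or higher moved with the scaling: 913 lower and 384 higher with quantile normalization, 1011 and 234 with arrays centred on their medians, 1124 and 217 with no further scaling, and 1599 and 129 after centring each array on its ribosomal protein genes, where the median of all genes stood at −0.14. Under these 3 other scalings 19 (against 5.56% of all genes), 19 (against 6.18%) and 24 (against 8.79%) of the 44 members were lower at an unadjusted limma p under 0.05 and 0 were higher. With a pseudocount of 1 in place of 16, 15 were lower (against 4.69% of all genes) and 2, Txnrd2 and Gpx5, were higher (against 2.18%). These counts depended on single arrays: without Normal 1 there were 6 members lower at an unadjusted limma p under 0.05 (against 3.39% of all genes) and without Ischemic 2 there were 11 (against 4.44%), the members lower without overlap numbered 18 without Normal 3 (against 7.87% of all genes) and 15 without Ischemic 5 (against 5.10%), and without Normal 3, 113 genes of the array passed adjustment, Sod3 and Gsta4 among them. In sorted bulk samples, fewer cells of a type and less RNA per cell cannot be told apart. The proximal tubule markers had a median difference of −3.08, with the distal tubule and endothelial markers also negative as given above, and the part of these cells in the differences was not tested.

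**Figure D1:**
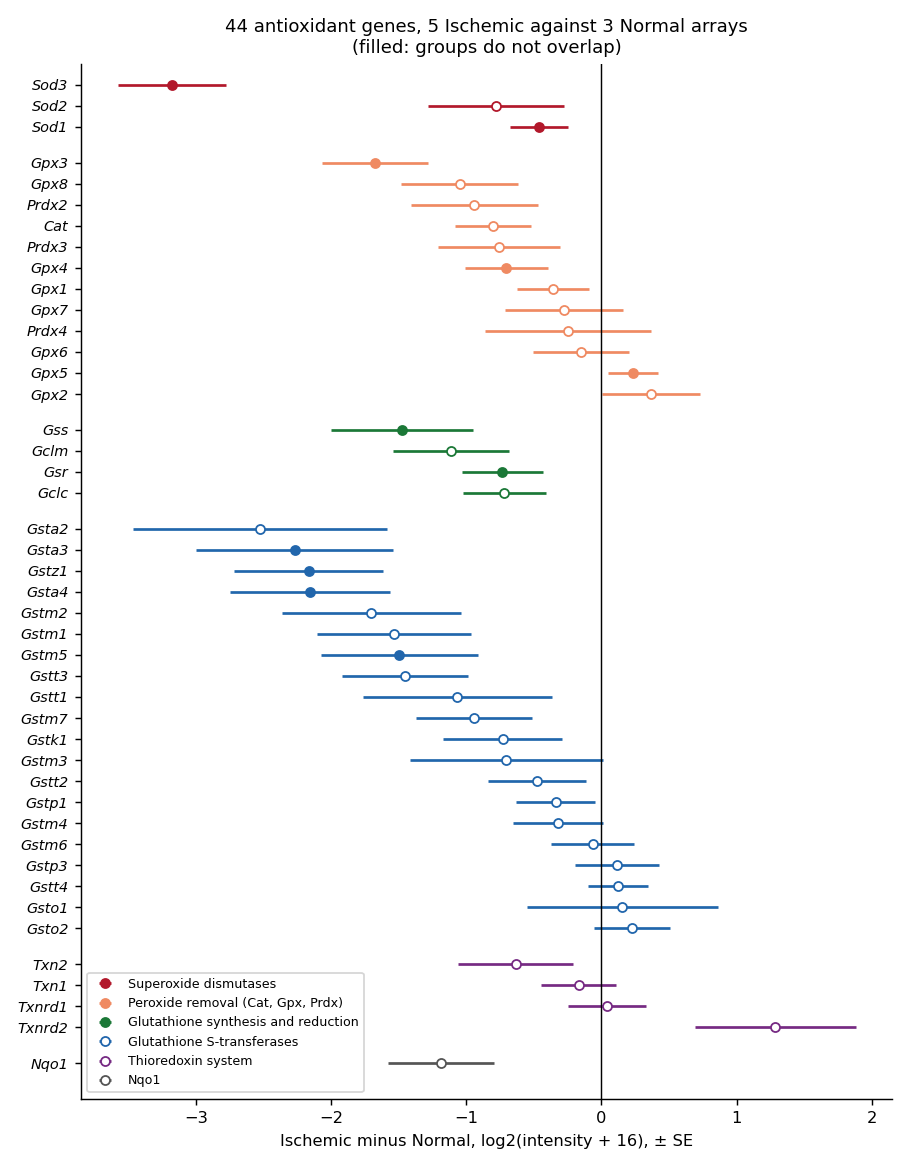
Difference between 5 Ischemic and 3 Normal arrays for each of the 44 genes, as Ischemic minus Normal log2(intensity + 16) with the limma standard error as bars; colours give the functional group, and filled points mark genes whose groups do not overlap. Of the 44 points 36 lie left of 0, Sod3 lies furthest left at −3.18 and Txnrd2 furthest right at 1.29.

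Both the glutathione S-transferases and the remaining genes had this direction. Of the former 16 of 20 were negative with a median of −0.84, and 20 of the other 24 genes were negative with a median of −0.71. By array, the median of the members relative to their Normal means was −1.01, −0.67, −0.62, −0.64 and −0.44 for Ischemic 1 to 5 and 0.46, −0.12 and −0.35 for Normal 1 to 3. All 5 Ischemic arrays therefore lay below all 3 Normal arrays on this measure, with Ischemic 5 and Normal 3 closest to each other. Normal 1 gave the highest of the 8 values for 24 members, and Ischemic 1 the lowest for 20. On the same measure the proximal tubule markers stood at −3.59, −2.15, −2.37, −4.07 and −3.08 in Ischemic 1 to 5 and at 0.88, 0.04 and −0.79 in Normal 1 to 3. The order of the 3 Normal arrays was the same for both lists, whereas Ischemic 4 was lowest for the tubule markers and Ischemic 1 for the antioxidant genes.

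**Figure D2:**
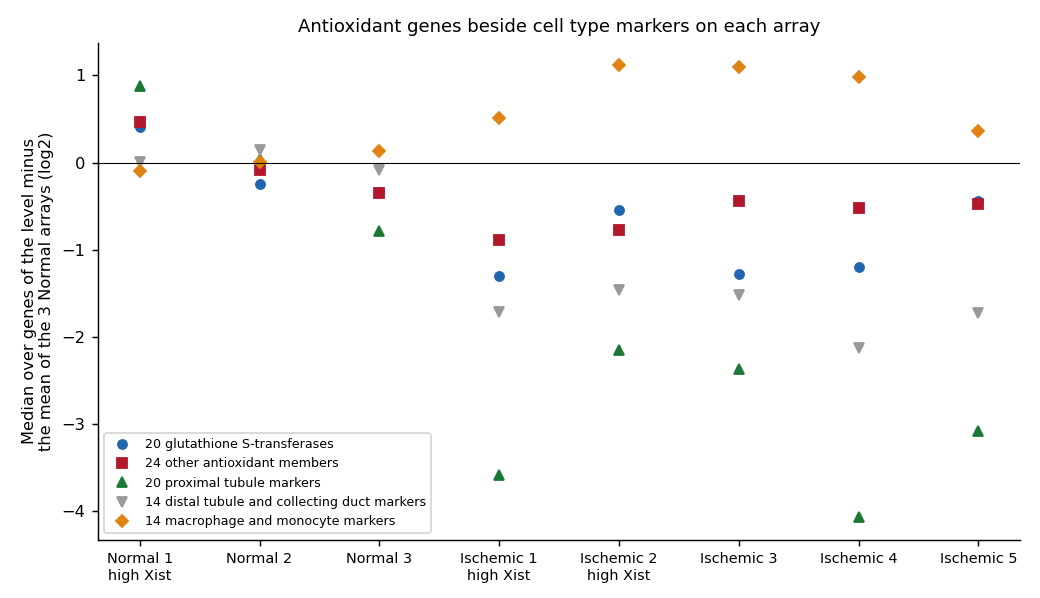
Median over each gene list of the value minus the gene's Normal mean, in log2(intensity + 16), for each of the 8 arrays; colours and marker shapes stand for the gene lists, with the antioxidant genes split into 20 glutathione S-transferases and 24 others, and the horizontal line is 0. The transferases run from −1.30 in Ischemic 1 to 0.41 in Normal 1, the other antioxidant genes from −0.89 to 0.47 on the same arrays, and the proximal tubule markers from −4.07 in Ischemic 4 to 0.88 in Normal 1.

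Among the superoxide dismutases, Sod3 had the largest difference of all 44 genes. Sod3 encodes the extracellular enzyme that is secreted and bound at cell surfaces and matrix. It read 5.49, 5.81, 5.77, 4.88 and 5.44 on Ischemic 1 to 5, and 9.43, 8.84 and 7.70 on Normal 1 to 3. The highest Ischemic array, Ischemic 2, was well below the lowest Normal array, Normal 3, and the groups did not overlap. The difference was −3.18 ± 0.40 (SE, n = 5 and 3), a 9.04-fold lower value, with a limma adjusted p of 0.122 and an exact two-sided permutation p of 0.0179, the smallest that the 56 splits of these arrays can give. Without Normal 3 the limma adjusted p was 0.0246, and over 24 alternative settings it ran from 0.0211 to 0.747. A second, dimmer probe set for Sod3 gave −0.47, and with both averaged the difference was −1.82. This dimmer probe set read 6.01, 4.89 and 4.25 on Normal 1 to 3 and 4.34 to 4.83 on the Ischemic arrays, so that Normal 3 lay below all 5 of them.

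Sod1, the copper-zinc enzyme of the cytosol, differed far less. Its 5 Ischemic values were 11.57, 12.02, 11.58, 11.83 and 11.97, and its Normal values 12.46, 12.26 and 12.04. The groups did not overlap, although Ischemic 2 came close to Normal 3. The difference was −0.46 ± 0.21 (limma adjusted p = 0.739), and its 5 probe sets ranged from −0.53 to 0.14. Sod2, the manganese enzyme of mitochondria, had a difference of −0.78 ± 0.50 (limma adjusted p = 0.880) with overlapping groups, and all 4 of its probe sets were negative, from −1.12 to −0.70.

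Of the enzymes that break down peroxides, Gpx3 was the most clearly lower. Gpx3 encodes the secreted selenium peroxidase. It read 10.93, 11.91, 11.65, 10.23 and 11.15 on the Ischemic arrays and 13.19, 12.92 and 12.43 on the Normal arrays. The 2 groups did not overlap, and Ischemic 4, the array with the lowest tubule markers, was also the lowest for this gene. The part of tubule cells in the level of Gpx3 was not tested. Its difference was −1.68 ± 0.39, a 3.19-fold lower value, with a limma adjusted p of 0.200 and an exact permutation p of 0.0179. With any single array left out the difference stayed between −1.88 and −1.44, and that of Sod3, which is larger, between −3.65 and −2.79.

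Gpx4, which reduces lipid peroxides within membranes, read 9.61, 9.81, 10.18, 9.84 and 10.19 on Ischemic 1 to 5 and 11.34, 10.21 and 10.34 on Normal 1 to 3. The groups did not overlap, but Ischemic 5 was just under Normal 2, and Normal 1 was well above the other Normal arrays. The difference was −0.70 ± 0.31 (limma adjusted p = 0.698), and without Normal 1 it was −0.35. Gpx1, the abundant cytosolic peroxidase, differed by −0.36 ± 0.27 with overlapping groups (limma adjusted p = 0.917). Gpx8, a peroxidase of the endoplasmic reticulum, differed by −1.05 ± 0.43 (limma adjusted p = 0.661), with 4 of 5 Ischemic arrays below all Normal arrays. The 4 remaining family members, Gpx2, Gpx5, Gpx6 and Gpx7, had differences between −0.28 and 0.37.

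Catalase, the peroxisomal enzyme that splits hydrogen peroxide, read 9.56, 9.83, 9.69, 10.19 and 9.53 on the Ischemic arrays and 11.10, 10.48 and 10.10 on the Normal arrays. Ischemic 4 was above Normal 3, and the other 4 Ischemic arrays were below all Normal arrays. The difference was −0.80 ± 0.28 (limma adjusted p = 0.517), and the second probe set gave −0.82. The 3 measured peroxiredoxins, which reduce peroxides with electrons from thioredoxin, were all negative with overlapping groups. Prdx2 of the cytosol read 7.53, 8.83, 8.96, 9.36 and 9.08 on the Ischemic arrays and 9.79, 10.34 and 8.94 on the Normal arrays, with Normal 3 inside the Ischemic range and Ischemic 1 apart below it. Its difference was −0.94 ± 0.47 (limma adjusted p = 0.769). Prdx3 of mitochondria differed by −0.76 ± 0.45 and Prdx4 of the secretory pathway by −0.25 ± 0.62. None of the 3 had an unadjusted limma p under 0.05. Prdx2 and Cat are also abundant in red cells: 6 of 11 red cell markers were measured, Hba-a1 and Epb42 were near the floor, and the summed intensity of the 6 was 90.7 to 232 on Ischemic and 207 to 557 on Normal arrays. The part of red cell RNA in these differences was not tested.

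All 4 genes that make or regenerate glutathione read lower on the Ischemic arrays, each at an unadjusted limma p under 0.05 and none after adjustment. In the 5 low Xist arrays all 4 were negative and none had such a p, the limma values being 0.145 to 0.307. Gss, glutathione synthetase, catalyses the second step of synthesis. It read 4.52, 5.41, 6.82, 6.30 and 5.85 on Ischemic 1 to 5 and 7.98, 6.85 and 6.93 on Normal 1 to 3. Ischemic 3 nearly reached Normal 2, so the groups were separated by a small margin. The difference was −1.48 ± 0.52 (limma adjusted p = 0.524), and the second probe set gave −1.40. Gsr, glutathione reductase, read 9.33, 9.01, 9.33, 9.40 and 8.90 on the Ischemic arrays and 10.64, 9.67 and 9.47 on the Normal arrays. The Ischemic values were tightly grouped below the Normal ones, with Ischemic 4 just under Normal 3. The difference was −0.73 ± 0.30 (limma adjusted p = 0.659) and −1.15 by the second probe set, and without Normal 1 it was −0.37.

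The 2 subunits of glutamate-cysteine ligase, the rate-limiting enzyme of glutathione synthesis, had overlapping groups. Gclm, the modifier subunit, read 6.58, 7.12, 7.77, 7.62 and 7.38 on the Ischemic arrays and 8.98, 8.87 and 7.37 on the Normal arrays. Normal 1 and Normal 2 were above every Ischemic array, whereas Normal 3 lay among them. Its difference was −1.11 ± 0.43 (limma adjusted p = 0.607). Gclc, the catalytic subunit, read 7.82, 8.68, 8.35, 8.28 and 8.31 on Ischemic 1 to 5 and 9.64, 8.52 and 8.85 on Normal 1 to 3. Ischemic 2 lay above Normal 2, and the other 4 Ischemic arrays were below all Normal arrays. The difference was −0.72 ± 0.31 (limma adjusted p = 0.685), and −0.40 without Normal 1. For each subunit the second probe set had the same sign, −1.30 for Gclm and −0.76 for Gclc.

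**Figure D3:**
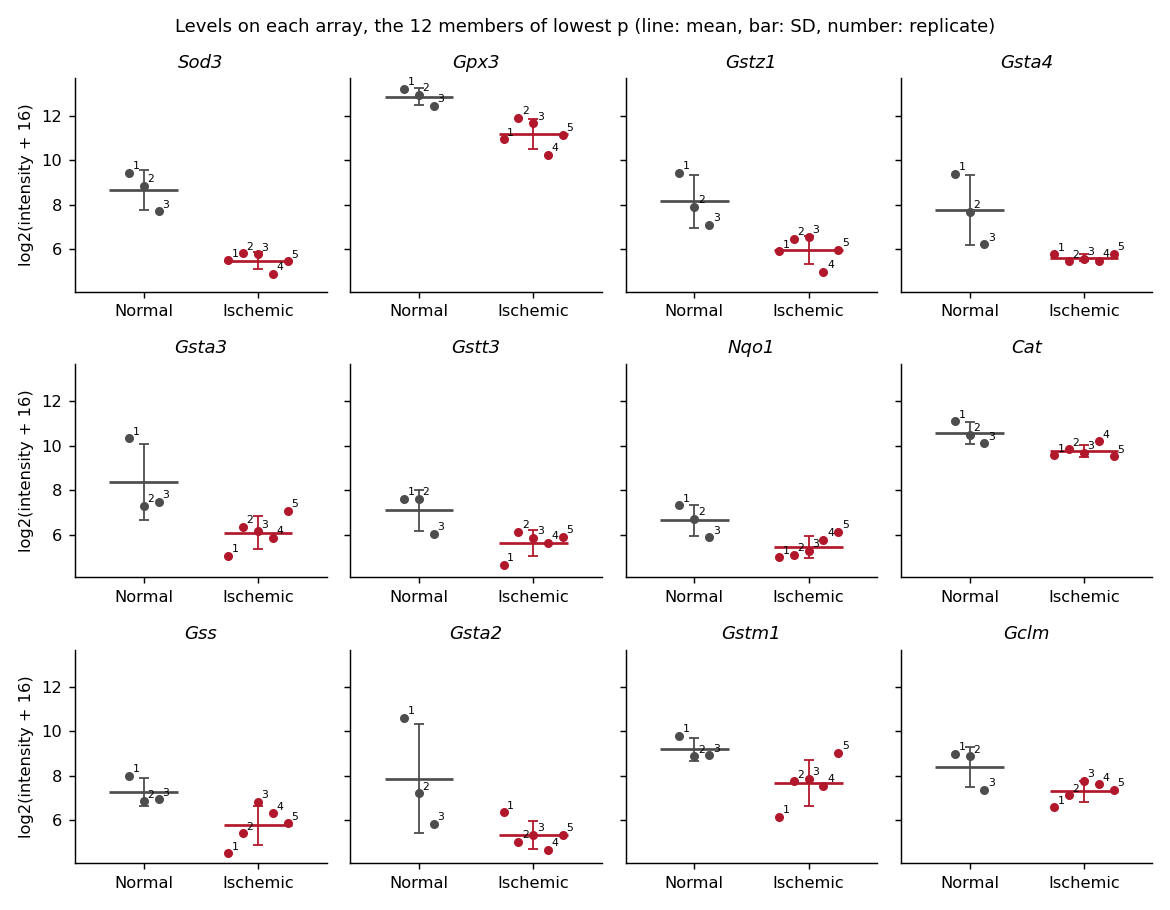
Level of the 12 antioxidant genes of lowest limma p on each of the 8 arrays, in log2(intensity + 16); each numbered point is an array, lines are group means and bars their SD (n = 3 Normal and 5 Ischemic). Sod3 lies between 4.88 and 5.81 on the 5 Ischemic arrays and between 7.70 and 9.43 on the 3 Normal arrays.

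The glutathione S-transferases are given by class, with no test between classes. The 3 alpha-class genes, which detoxify lipid peroxidation products and are abundant in liver and kidney epithelium, had the largest differences of the family, together with the zeta-class gene Gstz1. Gsta3 read 5.05, 6.35, 6.15, 5.84 and 7.06 on Ischemic 1 to 5 and 10.33, 7.28 and 7.48 on Normal 1 to 3. The groups did not overlap, but Normal 1 was far above the other Normal arrays. The difference was −2.27 ± 0.73 (limma adjusted p = 0.424), and without Normal 1 it was −1.29. The second probe set of Gsta3 gave −1.09 with overlapping groups. On it Ischemic 1 (7.43) and Ischemic 2 (6.83) lay above Normal 2 (6.21) and Normal 3 (6.36), and Normal 1 read 9.23. Gsta4, which prefers 4-hydroxynonenal, read 5.76, 5.45, 5.55, 5.46 and 5.78 on the Ischemic arrays and 9.39, 7.67 and 6.22 on the Normal arrays. The Ischemic arrays had an SD of 0.16, while the Normal arrays fanned out with an SD of 1.59. Its difference was −2.16 ± 0.59, with a limma adjusted p of 0.301 and 0.0439 without Normal 3. Across the 23 alternative settings that kept Gsta4 its limma adjusted p ran from 0.0439 to 0.893.

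Gsta2 had the largest mean difference of the family, −2.53 ± 0.94 (limma adjusted p = 0.576), but the least even Normal group. It read 6.35, 5.02, 5.35, 4.67 and 5.33 on Ischemic 1 to 5 and 10.59, 7.20 and 5.83 on Normal 1 to 3. Ischemic 1 lay above Normal 3, so the groups overlapped, and without Normal 1 the difference was −1.17. Gsta genes are close copies of each other, and their probe sets can share signal. Gstz1, which acts in tyrosine breakdown as maleylacetoacetate isomerase, read 5.90, 6.46, 6.55, 4.98 and 5.98 on the Ischemic arrays and 9.42, 7.91 and 7.09 on the Normal arrays. Each Ischemic value was below each Normal value, and the difference was −2.16 ± 0.55 (limma adjusted p = 0.240, exact permutation p = 0.0179).

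All 7 mu-class genes had negative differences, 3 of them at an unadjusted limma p under 0.05 (Gstm1, Gstm2 and Gstm5). Gstm3, Gstm4 and Gstm6, the last near the floor, turned positive without Normal 2, at 0.14, 0.098 and 0.16. In the high Xist arrays they were positive too, at 0.83, 0.19 and 0.66. Gstm1 read 6.15, 7.74, 7.86, 7.53 and 9.02 on Ischemic 1 to 5 and 9.79, 8.87 and 8.91 on Normal 1 to 3. Ischemic 5 reached the Normal range and the other 4 Ischemic arrays were below it. The difference was −1.53 ± 0.57 (limma adjusted p = 0.576), and the 4 probe sets of the gene ranged from −1.53 to −0.21. Gstm5 differed by −1.49 ± 0.58 without overlap, but by −0.62 without Normal 1. Gstm2 differed by −1.70 ± 0.66, with Ischemic 5 inside the Normal range. The mu-class genes are close copies that lie in a cluster, so which of them gave a signal is uncertain.

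In the theta class, Gstt3 read 4.64, 6.12, 5.86, 5.64 and 5.90 on the Ischemic arrays and 7.60, 7.62 and 6.03 on the Normal arrays. Ischemic 2 was above Normal 3, and the other Ischemic arrays were below it. The difference was −1.45 ± 0.47 (limma adjusted p = 0.429). Gstt1 read 8.19, 7.10, 6.04, 5.23 and 5.91 on Ischemic 1 to 5 and 8.64, 7.31 and 6.74 on Normal 1 to 3, so that Ischemic 1 and Ischemic 2 lay inside the Normal range. It differed by −1.07 ± 0.70 (limma adjusted p = 0.888), and by −0.53 without Normal 1.

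The mitochondrial and peroxisomal kappa-class gene Gstk1 read 5.88, 6.88, 6.58, 6.09 and 6.64 on the Ischemic arrays and 8.29, 6.61 and 6.54 on the Normal arrays. Normal 1 was far above the other 7 arrays, which overlapped. The difference was −0.73 ± 0.44 (limma adjusted p = 0.864), and −0.16 without Normal 1. Gstp1, the pi-class enzyme widely expressed outside the liver, read 8.90, 9.52, 9.78, 9.47 and 9.84 on Ischemic 1 to 5 and 9.64, 10.31 and 9.57 on Normal 1 to 3. Ischemic 3 and Ischemic 5 lay inside the Normal range, and the difference was −0.34 ± 0.29 (limma adjusted p = 0.937).

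The omega-class genes Gsto1 and Gsto2 encode transferases with thioltransferase activity. Gsto1 read 5.12, 7.41, 8.19, 8.56 and 7.08 on the Ischemic arrays and 7.41, 6.66 and 7.29 on the Normal arrays. Ischemic 1 was far below the rest and the groups overlapped. The difference was 0.15 ± 0.71 (limma adjusted p = 0.982), and its sign was negative under several settings, among them −0.0011 with arrays centred on ribosomal protein genes and −0.30 by its other probe set. Gsto2 differed by 0.23 ± 0.28.

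The promoters of 3 genes are shown because NRF2 binds an antioxidant response element, and the series measures transcripts of genes that are classic targets of it. Each sequence is the 250 bases before the annotated start in RefSeq, build GRCm38.p6, plus strand, and capitals mark a match to the core TGACNNNGC on either strand. Gsta3 is at chr1:21240335-21240584, Gclm at chr3:122245307-122245556 and Gpx3 at chr11:54902604-54902853.
Gsta3: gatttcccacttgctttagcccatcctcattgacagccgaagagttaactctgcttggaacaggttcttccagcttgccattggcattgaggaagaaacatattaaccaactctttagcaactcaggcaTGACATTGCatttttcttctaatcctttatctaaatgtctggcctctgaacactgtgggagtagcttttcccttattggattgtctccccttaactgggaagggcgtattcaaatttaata
Gclm: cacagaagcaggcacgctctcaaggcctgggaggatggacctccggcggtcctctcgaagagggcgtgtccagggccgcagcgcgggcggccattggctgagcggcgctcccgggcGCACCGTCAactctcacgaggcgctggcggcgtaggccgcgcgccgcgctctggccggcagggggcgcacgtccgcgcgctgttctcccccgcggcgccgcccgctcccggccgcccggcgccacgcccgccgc
Gpx3: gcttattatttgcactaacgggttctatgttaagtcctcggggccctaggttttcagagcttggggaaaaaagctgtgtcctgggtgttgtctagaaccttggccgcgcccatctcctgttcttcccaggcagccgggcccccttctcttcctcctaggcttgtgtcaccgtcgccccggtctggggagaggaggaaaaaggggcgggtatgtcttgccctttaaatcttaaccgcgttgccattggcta
The Gsta3 match, TGACATTGC, starts 121 bases before the start on the plus strand. The Gclm match is on the other strand and reads GCACCGTCA as printed, 134 bases before the start. The Gpx3 window held no match, and neither did that of Nqo1, which is not shown. These letters were found, counting either strand, in 10.2% of the 32851 promoters of the table, in 11.5% of 27025 genes, in 6 of 39 members with a promoter in the table (15.4%) and in 2 of the 10 among the 12 members of lowest p that had one. Those 2 are Gsta3 and Gclm, both shown here, so the 3 promoters shown do not stand for the 10. A match describes these letters in this window and no more.

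In the thioredoxin system no gene had an unadjusted limma p under 0.05. Txn1 and Txn2 encode the cytosolic and mitochondrial thioredoxins, the small proteins that pass electrons to peroxiredoxins, and Txnrd1 and Txnrd2 encode the reductases that recharge them. Txn1 read 10.58, 10.89, 11.48, 10.61 and 11.03 on the Ischemic arrays and 11.44, 10.94 and 10.88 on the Normal arrays, Txn2 read 7.73, 8.52, 8.03, 7.38 and 7.50 against 9.50, 7.89 and 8.02, and Txnrd1 read 9.70, 9.50, 10.43, 10.13 and 10.39 against 9.87, 9.76 and 10.33. The groups overlapped for all 3 genes, and for Txn2 Normal 1 was well above the rest. Txn1 differed by −0.17 ± 0.27 (limma adjusted p = 0.962), Txn2 by −0.63 ± 0.43 (0.894), or −0.12 without Normal 1, and Txnrd1 by 0.04 ± 0.29 (0.989). The sign of Txnrd1 was negative at −0.18 with arrays centred on their medians and −0.34 with ribosomal centring, and that of Txn1 was positive at 0.13 within the low Xist arrays. Txnrd2 had the largest positive difference of the 44 genes, 1.29 ± 0.59 (limma adjusted p = 0.736). It read 7.17, 7.87, 5.91, 6.49 and 5.36 on Ischemic 1 to 5 and 5.89, 4.41 and 5.52 on Normal 1 to 3, so that Ischemic 5 lay within the Normal range. The other 3 probe sets of Txnrd2 gave 0.39, 0.31 and −0.27, and with all 4 averaged the difference was 0.43.

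Nqo1, the quinone reductase often used as a readout of NRF2, read 4.98, 5.08, 5.27, 5.76 and 6.13 on the Ischemic arrays and 7.32, 6.70 and 5.89 on the Normal arrays. Ischemic 5 was above Normal 3, and the other Ischemic arrays were below all Normal arrays. The difference was −1.19 ± 0.39 (limma adjusted p = 0.451).

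**Figure D4:**
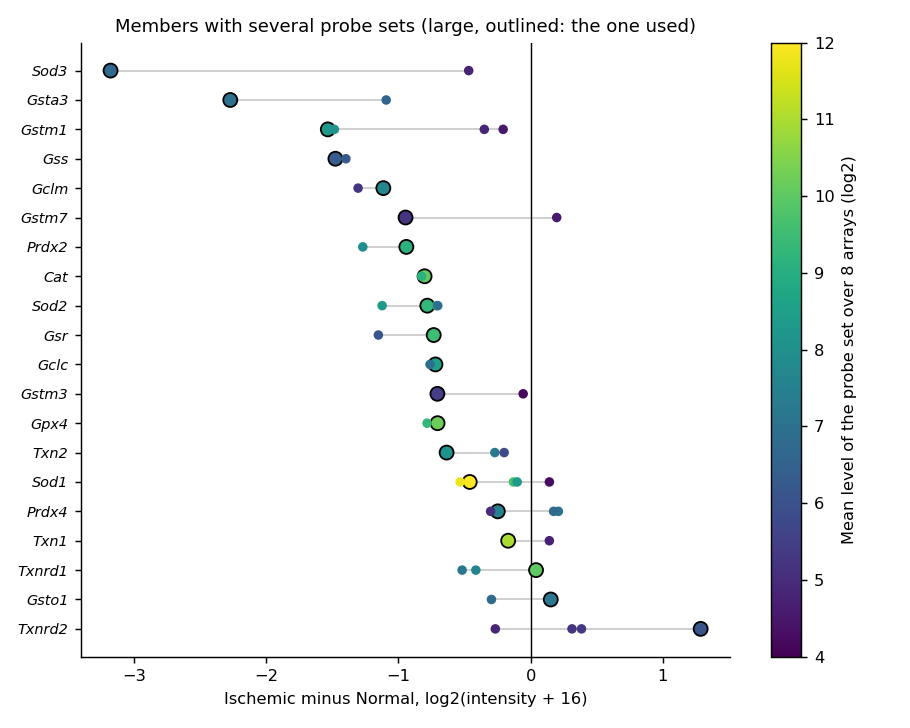
Ischemic minus Normal difference in log2(intensity + 16) for every probe set of the 20 genes that have several, with the brightest probe set, used in the text, marked apart from the others. In 13 genes all probe sets lie on one side of 0 and in 7 they lie on both; for Sod3 they are −3.18 and −0.47.

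Probe sets of one gene gave a check that did not rest on a single set of oligonucleotides. Of the 44 genes 24 had 1 probe set and 20 had several. In 13 of the 20 all probe sets had the same sign, including Cat, Gclc, Gclm, Gpx4, Gsr, Gss, Gsta3, Gstm1, Prdx2, Sod2 and Sod3. The same sign does not mean the same separation, and for Sod3 the dimmer probe set had overlapping groups. How often probe sets share a sign over all genes was not counted. In the other 7 both signs occurred: Gstm7, Gsto1, Prdx4, Sod1, Txn1, Txnrd1 and Txnrd2.

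Genes around these enzymes were described from lists of their pathways, with no gene passing adjustment; over all genes tested 45.2% were negative, 5.02% were lower at an unadjusted limma p under 0.05 and 3.44% were lower without overlap. In glutathione synthesis, transport and breakdown 18 of 23 measured genes were negative and 7 were lower at an unadjusted limma p under 0.05, 6 of them without overlap. Abcc2, an apical exporter of glutathione conjugates, read 4.85, 4.39, 5.51, 4.48 and 5.29 on the Ischemic arrays and 10.13, 8.34 and 6.76 on the Normal arrays. The groups were far apart, and the difference was −3.51 ± 0.67 (limma adjusted p = 0.149). Dpep1, a brush-border dipeptidase that splits cysteinylglycine, differed by −3.40 ± 0.77, Slc7a9, a subunit of the tubular cystine transporter, by −2.79 ± 0.57, and Oplah, the 5-oxoprolinase of the glutathione cycle, by −1.42 ± 0.29. Slc7a11, the cystine importer that many cells induce under oxidant stress, differed by 0.37 ± 0.52 (limma adjusted p = 0.956), and by −0.08 without Normal 1.

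Among 14 other genes of conjugation 9 were negative, with Mgst3 at −1.06 ± 0.37 and Hagh, glyoxalase 2, at −0.49 ± 0.20. Among 26 genes of the thioredoxin, glutaredoxin and methionine sulfoxide systems 17 were negative and 4 were lower at an unadjusted limma p under 0.05: Sesn2 (−2.08 ± 0.65), Sephs2 (−2.03 ± 0.71), which makes selenophosphate for selenoproteins, Ccs, the copper chaperone of SOD1 (means of 6.35 on Ischemic and 7.35 on Normal arrays), and Park7 (−0.99 ± 0.38). Srxn1, which repairs oxidised peroxiredoxins, differed by −0.92 ± 0.63. Of 14 genes of NADPH supply 7 were negative, near the share of all genes, and 4 were lower at an unadjusted limma p under 0.05. These were Me1, malic enzyme 1 (−2.19 ± 0.58), Mthfd1 of folate metabolism (−1.64 ± 0.69), Idh1, the cytosolic isocitrate dehydrogenase (−1.24 ± 0.49), and Nnt, the mitochondrial transhydrogenase (−1.15 ± 0.35), with no overlap for Me1 and Nnt. Among 18 measured oxidant-producing enzymes 10 were negative, also near that share, and 6 were lower at an unadjusted limma p under 0.05. Of these 6, the 4 without overlap were peroxisomal oxidases: Hao2 (−3.17), Dao (−2.35), Pipox (−1.99) and Ddo (−1.85). The 8 positive genes of the list held 0 at an unadjusted limma p under 0.05. The medians of the pathway lists ran from −0.60 for glutathione synthesis, transport and breakdown to 0.18 for the NRF2 regulators.

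Of the 13 regulators of NRF2 10 were positive, 0 had an unadjusted limma p under 0.05 in either direction, and for 0 did the groups lie apart. Nfe2l2, which encodes NRF2, differed by 0.18 ± 0.42, and Keap1 by −0.37 ± 0.58, or by 0.10 without Ischemic 1. Of 17 other NRF2 targets 10 were negative, and Hmox1 was the single gene with an unadjusted limma p under 0.05. Hmox1, heme oxygenase 1, read 7.15, 8.68, 10.08, 9.29 and 8.91 on Ischemic 1 to 5 and 7.18, 6.87 and 8.04 on Normal 1 to 3. Ischemic 1 lay within the Normal range, and the other 4 Ischemic arrays were above it. The difference was 1.46 ± 0.60 (limma adjusted p = 0.664), opposite in sign to Nqo1 and Gclm, and the difference between these genes was not tested. Hmox1 is also high in macrophages that clear heme, and macrophage markers were higher on the Ischemic arrays as given above; their part in this value was not tested.

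The differences were recomputed within each Xist class. In the 5 low Xist arrays (3 Ischemic and 2 Normal) 35 of 44 members were negative with a median of −0.47, against a median of 0.009 over all genes. In the 3 high Xist arrays (2 Ischemic and 1 Normal) 34 were negative with a median of −1.38, against 0.067 over all genes. Both classes were cut at the widest gap in the Xist signal of these arrays, and the comparison within the high class was set after seeing the data. In all, 29 genes were negative in both; the 12 genes of lowest p were among them, but these had been picked on all 8 arrays. The groups did not overlap, lower, for 17 members in the low Xist arrays, against 10.3% of all genes, and for 34 in the high Xist arrays, against 32.9%. At an unadjusted limma p under 0.05, 7 members were called in the low Xist arrays, where 3.28% of all genes were lower. Sod3 differed by −2.90 and −3.78 in the low and high classes, Gpx3 by −1.67 and −1.77, Gsta4 by −1.34 and −3.78, and Gsta3 by −1.03 and −4.62. The proximal tubule markers had medians of −2.79 and −3.62 in the same classes. Normal 1, the only Normal array of the high class, was the array on which the alpha-class transferases were highest. Without this array Sod2 differed by −0.42, Gpx1 by −0.18, Cat by −0.53 and Gsta4 by −1.34. Without Normal 2 Prdx2 differed by −0.61 and Gstp1 by −0.10.

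**Figure D5:**
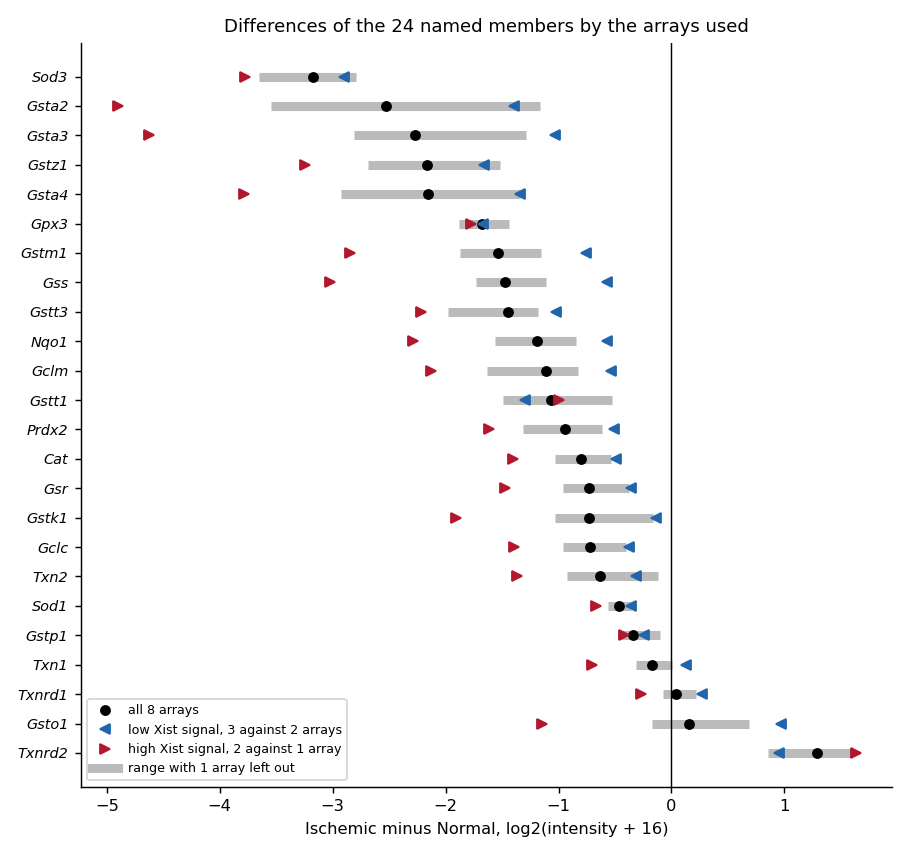
Ischemic minus Normal difference in log2(intensity + 16) of 24 antioxidant genes with all 8 arrays (circles), with the low Xist arrays (left triangles), with the high Xist arrays (right triangles) and as the range with any 1 array left out (grey bars). Gpx3 stays between −1.88 and −1.44 with 1 array left out, whereas Gsta2 runs from −3.55 to −1.17.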

How the data were processed

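The deposited values are Affymetrix mouse 3′ array probe-set intensity values on a linear scale, as the deposited table gives them; the software and normalization used by the authors to make the intensity values are not stated in any label or file header used here. Of 45101 probe sets 64 controls were removed, 34945 had 1 symbol, 932 several and 9160 none. First log2(value + 16) was taken, and the result was then quantile normalized between arrays. Each gene was read from the probe set of highest mean over 8 arrays (R 4.3.3, limma 3.58.1, lmFit and eBayes, 5 Ischemic against 3 Normal, Benjamini-Hochberg over 18193 genes, threshold 0.05). Exact permutation tests used all 56 splits of the arrays, two-sided, with a smallest possible p of 0.0179. The number of arrays limits the precision. The fit was tested on simulated data. Per-array values are given for the 12 members of lowest p, the brightest member of each of 10 families and 10 single genes of the rule (24 in all, as these overlap), and up to 4 genes of lowest unadjusted p in each pathway list are named, with Nfe2l2, Keap1, Hmox1, Srxn1 and Slc7a11; other members, with per-array values for Gpx4, were named after their values were seen. Promoters came from RefSeq (GRCm38.p6). The members, lists and rules were chosen with earlier results of these data known. Alternatives are in the closing section.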

Additional observations from a re-analysis of the deposited data

Results flagged for a closer look

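Among 67 genes checked in the 5 Ischemic arrays, 6 had 1 array standing apart from the others by more of the range than Dixon's critical value of 0.710; chance flags about 1 in 20 groups. Gstm6 read 5.22 on Ischemic 1, with the nearest other array at 4.38, and Prdx2 read 7.53 there against 8.83. Keap1 read 6.29 on Ischemic 1 against 8.46. Gstm7 read 6.16 on Ischemic 5 against 4.65, and Oplah 4.99 against 4.34. Slc7a9 read 6.35 on Ischemic 3 against 5.14. Ischemic 1 was the array concerned in 3 of the 6, Ischemic 5 in 2 and Ischemic 3 in 1.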

How the results depend on the processing

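Of 24 named members 21 kept their sign in every alternative setting that held them, and Gsto1, Txnrd1 and Txn1 did not. There were 24 settings for most and 23 for 6 genes under the 60th percentile filter. Some of the 24 had been picked by lowest p on these same arrays, which favours a stable sign. Outside the 24, Gstm3, Gstm4, Gstm6, Gstt2, Gpx7, Prdx4 and Gstp3 changed sign with 1 array left out. Sod2, Gpx6, Gsto2 and Gpx2 did so within an Xist class. The remaining members outside the 24 kept their sign in these settings. The cause was not tested for any of these values. Gsto1 turned to −0.21 with the replicate block, −0.0011 with ribosomal centring, −0.072 with the mean of probe sets, −0.30 without _x_at or _s_at probe sets, −1.14 in the high Xist arrays, and to as low as −0.17 (without Ischemic 4) in a range up to 0.69 with 1 array left out. Txnrd1 turned to −0.11 with the block, −0.18 with median centring, −0.34 with ribosomal centring, −0.20 with no further scaling, −0.30 with the mean of probe sets, −0.27 in the high Xist arrays, and ran from −0.073 to 0.21 with 1 array left out. Txn1 turned to 0.088 with array weights and 0.13 in the low Xist arrays, and ran from −0.31 to 0.0064 with 1 array left out. The count of all genes passing, 0 in limma with 913 lower and 384 higher at an unadjusted p under 0.05, was 144 with ribosomal centring (142 lower, 2 higher; that scaling moves the median of all genes from 0.04 to −0.14), 2 with no further scaling, 1 with a pseudocount of 1, 15 above the 40th percentile, 2 with the mean of probe sets, 31 with an intensity trend, 5 with array weights, 1 with the Xist covariate, and 0 to 113 with 1 array left out, the highest without Normal 3. One member, Sod3, passed with ribosomal centring (adjusted p = 0.0211), above the 40th percentile (0.0423) and with the trend (0.0425); over its 24 settings the limma adjusted p ran from 0.0211 to 0.747. With 1 array left out 0 to 2 members passed, the 2 being Sod3 (0.0246) and Gsta4 (0.0439) without Normal 3. The 18 members at an unadjusted p under 0.05 (all lower, against 5.02% of all genes) became 10 with the block (5.29%; Gss, Gsr, Gclm and Gclc then had limma p of 0.0679 to 0.189), 8 of 24 tested above the 60th percentile (5.85%), 7 in the low (3.28%) and 10 in the high Xist arrays (5.30%; the single Normal array there is assumed to vary like the Ischemic ones), and 6 to 17 with 1 array left out (6 without Normal 1, 11 without Ischemic 2). The 11 members without overlap became 7 above the 60th percentile (lower; 4.40% of all genes), 18 in the low (17 lower, 10.3%) and 42 in the high Xist arrays (34 lower, 32.9%), and 11 to 19 with 1 array left out (19 without Normal 3, 17 without Ischemic 5). The median of the members was −1.38 in the high Xist arrays, an alternative chosen after seeing the data, and −0.86 to −0.48 with 1 array left out. Deviations from the group mean correlated at 0.16, −0.09 and 0.10 between arrays of the same replicate number. The deviations of the 3 Normal arrays sum to 0 for each gene, so these values cannot decide whether replicate numbers pair the samples. The number of arrays and the closeness of dim probe sets to background limit what can be seen.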
